A study of Homo sapiens with 6 samples.

Results

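The bone morphogenetic protein (BMP), activin and inhibitor of DNA binding (ID) genes were examined in MDA-MB-231 cells after knockdown of TAZ. The 10 genes were taken by gene symbol from a table of 46427 genes and comprise the ligand genes BMP2, BMP4, BMP6, INHBA and GDF15, the follistatin-type genes FST, FSTL1 and FSTL3, and the target genes ID1 and ID3. Of them, 9 passed the filter on low counts, as did 16966 genes in all, and BMP2 did not.

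MDA-MB-231 is a metastatic human breast cancer cell line with mesenchymal features. The cells had received either control-siRNA (3 libraries) or TAZ-siRNA, directed at the TAZ gene WWTR1 (3 libraries), and the question was how TAZ knockdown alters genes linked to metastasis and motility. Each library came from a cell preparation of the same unmodified line in culture, so the comparison concerns 1 line and no tissue, and p-values measure the spread between these preparations. RNA was measured by mRNA sequencing, with 48307548 to 71749634 estimated counts per library.

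BMPs and activins are secreted dimers of the TGF-β superfamily. They bind pairs of type I and type II receptor kinases, which phosphorylate SMAD1, SMAD5 and SMAD9 for most BMPs and SMAD2 and SMAD3 for activins, and these enter the nucleus with SMAD4. Follistatins hold ligands outside the cell and keep them from their receptors. ID genes are classic direct targets of BMP-activated SMADs, and ID proteins lack a DNA-binding region and sequester E-proteins, a group of transcription factors. TAZ itself does not bind DNA and acts largely through TEAD factors.

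The siRNA treatment lowered WWTR1 from 191 ± 1.46 to 16.5 ± 1.21 CPM (SD, n = 3 per group), which was 8.65% of control-siRNA. CPM here are counts scaled to a common library total with TMM factors. The breast and line marker list summed to 5311 to 5571 TPM (a per-length level scaled to a common total) with control-siRNA and to 5466 to 5640 TPM with TAZ-siRNA, with VIM, KRT18, KRT8 and CD44 high. The epithelial markers EPCAM, at 1.14 to 2.25 TPM, and CDH1, at 0.0146 to 0.252 TPM, were low. The receptors ESR1 and PGR lay at or near 0. The receptor ERBB2 did not, at 19.7 to 21.7 TPM with control-siRNA and 20.6 to 30.2 TPM with TAZ-siRNA. The 5 fibroblast markers summed to 2.47 to 2.88 TPM with control-siRNA and to 3.54 to 4.19 TPM with TAZ-siRNA, with DCN at 0 throughout. COL1A1 gave nearly all of this sum and rose (edgeR adjusted p = 0.00703), while COL1A2, LUM and PDGFRA were at most at 0.126 TPM. The 3 endothelial markers summed to 2.14 to 2.95 and 2.22 to 3.67 TPM. The leukocyte markers PTPRC and CD3E were at 0, so that CD68 alone gave that list its 93.7 to 99.4 TPM with control-siRNA and 71.2 to 77.2 TPM with TAZ-siRNA. The part of these marker differences in the results below was not tested. In bulk RNA, fewer cells that express a gene and less of its RNA per cell cannot be told apart.

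With TAZ-siRNA, the follistatin genes FST and FSTL3 fell while the ligand gene BMP4 and the target gene ID1 rose. Of these 4 genes FST changed most, to 51.1% of control-siRNA, and ID1 stood at 1.39-fold, BMP4 at 1.22-fold and FSTL3 at 77.6% of control-siRNA. Thus 4 of the 9 tested genes had an adjusted p under 0.05 in edgeR's quasi-likelihood test, fitted on all genes, against 22.1% of the 16966 genes tested. Of these 4, 2 were higher and 2 were lower, beside 11.9% higher and 10.2% lower among all genes. For 5 of the 9 genes every library of 1 group lay above every library of the other, beside 39.6% of all genes tested. All 9 fold changes were under 2-fold in either direction, and their median log2 fold change was -0.07, against -0.01 over all genes tested. The third TAZ-siRNA library differed from the other two more than they did from each other (chi-square per degree of freedom of 27.6 and 38.2, against 10.8), and so did the third control-siRNA library (20.3 and 18.5, against 6.38). Several of the genes below depended on the third TAZ-siRNA library: without it, 7 of the 9 had an adjusted p under 0.05, and so had 5928 of 17585 genes.

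**Figure D1:**
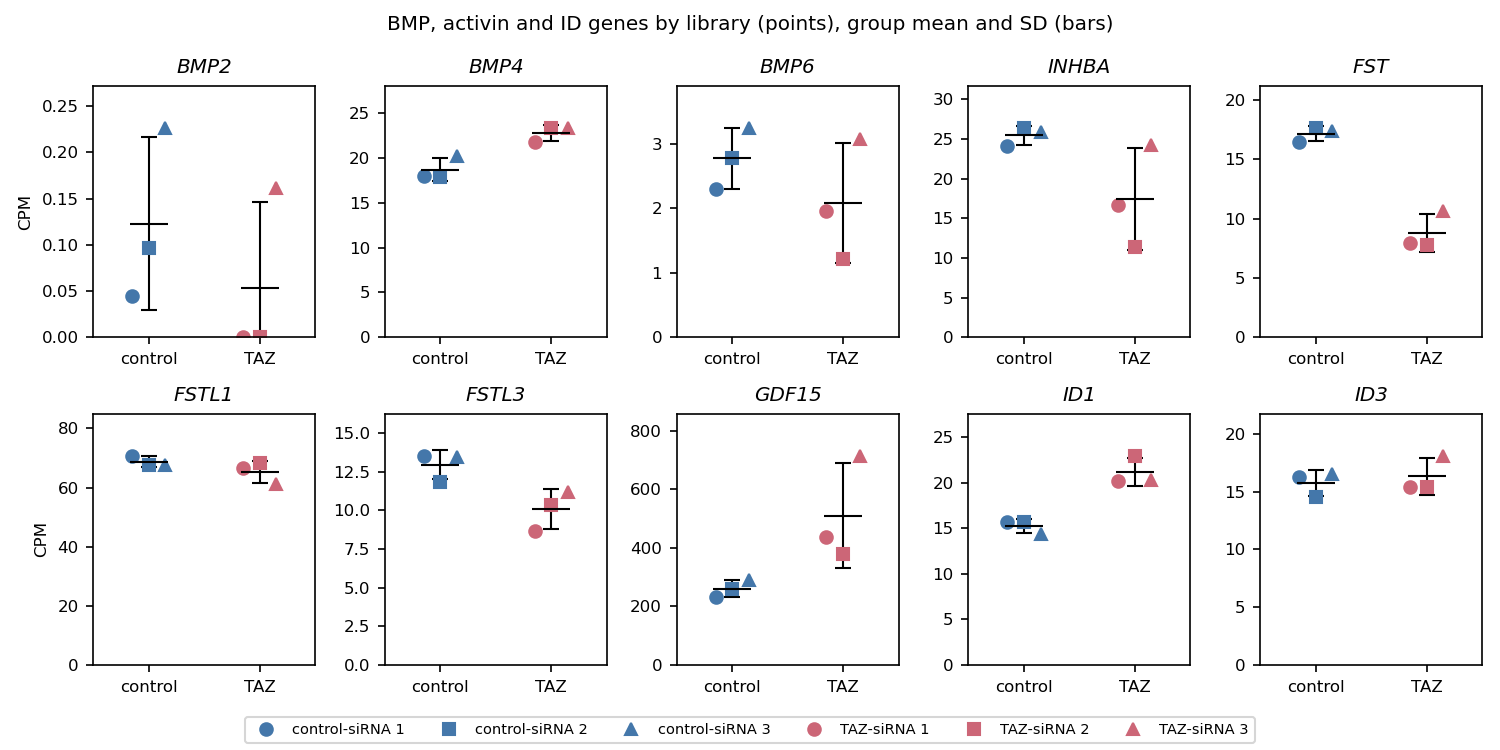
CPM (vertical axes, from 0, on a scale of its own for each gene) of the 10 genes in the 3 control-siRNA libraries (blue) and the 3 TAZ-siRNA libraries (red); horizontal bars are group means and error bars are SDs. The groups are separate for BMP4, FST, FSTL3, GDF15 and ID1, and the third TAZ-siRNA library (red triangle) lies near the control-siRNA libraries for INHBA and BMP6.

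The promoters of 9 of the 10 genes were found by symbol in the RefSeq table for GRCh38.p14, in windows from 250 bases before to 49 bases after the start site, which is counted as 0. BMP4 had 3 windows, whose start sites lie 1775, 2337 and 3430 bases from the start of its leading transcript, and the start site of the FST window lies 288 bases from that of its leading transcript. In the other 7 genes the start sites are the same. GENCODE exons cover 241 of the 250 bases before the GDF15 start site and 94 of those before the ID1 start site. In the BMP4 windows, in the order given above, they cover all 250, 132 and 60 of these bases. In FSTL1 they cover 24 and in FST 3. Parts or all of these stretches are thus also transcribed in other annotated transcripts. The genes ID1 and ID3, 2 members of 1 family that gave different results, and GDF15, INHBA and FSTL3 are shown over the same 30 bases, from -35 to -6, where a TATA box usually lies. Capitals mark the letters TATAAA on the strand of the gene.
ID1 (chr20:31605254-31605283, plus strand): tgttTATAAAagacaagctgtggctccgca
ID3 (chr1:23559507-23559536, minus strand): aggctctataagtgaccgccgcggcgagcg
GDF15 (chr19:18386123-18386152, plus strand): ggggacTATAAAggccggtccggcagcatc
INHBA (chr7:41703096-41703125, minus strand): gtggtgtacaaataagtagtacagTATAAA
FSTL3 (chr19:676357-676386, plus strand): gggacctttatagggagcgccggccgcgcg
The letters TATAAA were present in the sense strand of 7.33% of the 35116 promoter windows of 300 bases in the table. In ID1 they began at -31 and in GDF15 at -29, whereas in INHBA they began at -11, nearer to the start site.

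A search for GGAATG, the letters that TEAD factors prefer, on both strands found matches in the windows of GDF15 and ID1, in the BMP4 window farthest from its leading start, and in 14% of all windows. The match of ID1 spans its start site on the minus strand and therefore reads CATTCC here. The GDF15 match and the ID1 match are shown in capitals.
GDF15 (chr19:18385916-18385945, plus strand): gactcccaggctGGAATGgtgtcctcatat
ID1 (chr20:31605276-31605305, plus strand): gctccgcactctCATTCCacgttcttaact
The letters GGCGCC, contained in the GC-rich elements bound by SMAD1 and SMAD5, occurred in the windows of BMP4, FSTL1 and FSTL3 and in 19.2% of all windows. The cAMP response element TGACGTCA occurred in none of the 9 genes' windows and in 1.85% of all windows. A match describes the letters only and is not a site of binding.

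Among the ligands, BMP4 was the BMP gene with most RNA. BMP4 (chr14:53949736-53956891) encodes a ligand of the SMAD1/5/9 branch and was measured at 17.97, 17.93 and 20.24 CPM with control-siRNA and at 21.8, 23.3 and 23.4 CPM with TAZ-siRNA. Every TAZ-siRNA library was above every control-siRNA library. BMP4 rose by 0.29 ± 0.07 on the log2 scale (value ± standard error, here and below; edgeR adjusted p = 0.0154), and the exact two-sided permutation test gave p = 0.1, the smallest that 3 libraries against 3 allow. The rise kept its direction with each library left out, at 0.26 to 0.35, but leaving out control-siRNA replicate 1 gave an adjusted p of 0.0720 and leaving out replicate 2 of that group 0.0816.

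BMP6 (chr6:7726099-7881728), another ligand of that branch, was low, at 2.31, 2.78 and 3.25 CPM with control-siRNA and 1.96, 1.22 and 3.08 CPM with TAZ-siRNA. The third TAZ-siRNA library lay within the control-siRNA range and the other two lay below it. BMP6 had a log2 fold change of -0.40 ± 0.28 (edgeR adjusted p = 0.344). Without TAZ-siRNA replicate 3 it was -0.77 (adjusted p = 0.0124), and its range over the libraries left out was -0.77 to -0.14. The last exons of BMP6 share 212 bases with those of TXNDC5 on the opposite strand, which had 13577 to 19876 counts per library against 60 to 173 for BMP6, and the sources used here do not say whether counting used the strand of the reads.

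BMP2 (chr20:6767686-6780246) was at the limit of detection. It had 3, 6 and 11 counts with control-siRNA and 0, 0 and 9 counts with TAZ-siRNA, where 3 counts correspond to 0.0411 to 0.0618 CPM. The groups overlapped and no difference was detectable at this depth.

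INHBA (chr7:41685101-41710532) encodes the βA subunit, which forms activin A as a dimer with itself. The 3 control-siRNA libraries lay close together at 24.1, 26.4 and 25.9 CPM, and the TAZ-siRNA libraries were at 16.7, 11.4 and 24.2 CPM. The first and second of the TAZ-siRNA libraries were below all control-siRNA libraries, and the third was inside their range. The SD of the 3 libraries was 1.19 CPM with control-siRNA and 6.48 CPM with TAZ-siRNA. The difference of -0.54 ± 0.27 on the log2 scale did not pass the test (edgeR adjusted p = 0.215). Without TAZ-siRNA replicate 3 it was -0.84 (adjusted p = 0.0102), and with any of the other 5 libraries left out it lay between -0.58 and -0.32. The antisense gene INHBA-AS1, which shares 248 exon bases with INHBA, had 0 to 4 counts.

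GDF15 (chr19:18382170-18389176) encodes a distant member of the superfamily that is induced by cell stress and signals through GFRAL. GDF15 was measured at 232, 259 and 291 CPM with control-siRNA and at 437, 379 and 715 CPM with TAZ-siRNA. All TAZ-siRNA libraries were above all control-siRNA libraries, with the third far above the other two. The group means were 261 ± 29.2 and 510 ± 179 CPM, and the estimated ratio of 1.96 was the largest upward ratio among the 9 genes. With this spread, the log2 fold change of 0.97 ± 0.27 had an adjusted p of 0.0616 by edgeR. The call turned on the settings. In 8 of the 15 alternatives GDF15 still did not pass, with an edgeR adjusted p of up to 0.136, reached without control-siRNA replicate 2. DESeq2 gave an adjusted p of 0.00989, and limma gave 0.0322 on log2(FPKM + 1), 0.0468 on log2(FPKM + 0.1) and 0.0386 on log2(TPM + 1). Leaving out TAZ-siRNA replicate 2 moved the log2 fold change to 1.15 (adjusted p = 0.0284), and leaving out TAZ-siRNA replicate 3 moved it to 0.65 (adjusted p = 0.00259). Its receptor gene GFRAL was at 0 counts in every library.

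Of the follistatin-type genes, FST (chr5:53480338-53487134) encodes follistatin, which binds activins with high affinity and some BMPs more weakly. FST was measured at 16.4, 17.6 and 17.4 CPM with control-siRNA and at 7.90, 7.77 and 10.7 CPM with TAZ-siRNA. The groups were far apart, with the third TAZ-siRNA library the nearest to control-siRNA. FST fell by 0.97 on the log2 scale, with a standard error of 0.11 (adjusted p = 4.16e-04, edgeR). The fall passed the threshold in all 15 alternatives, with -1.13 to -0.89 when each library was left out.

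FSTL3 (chr19:676392-683385) encodes a follistatin-like protein that also binds activins and myostatin-like ligands. FSTL3 was measured at 13.5, 11.8 and 13.5 CPM with control-siRNA and at 8.65, 10.4 and 11.2 CPM with TAZ-siRNA. The groups did not overlap, but the lowest control-siRNA library and the highest TAZ-siRNA library were close. FSTL3 fell by 0.37 on the log2 scale, with a standard error of 0.10 (edgeR adjusted p = 0.0292). The direction was kept in all 15 alternatives, and the threshold was missed in 5 of them: it was 0.110 and 0.100 when control-siRNA replicates 1 and 3 were left out, 0.112 and 0.0593 when TAZ-siRNA replicates 1 and 2 were, and 0.0732 with limma on log2(TPM + 1).

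FSTL1 (chr3:120392293-120450993) encodes a secreted glycoprotein named for its follistatin-like region, which does not act as a classic activin trap. It was measured at 70.8, 67.8 and 67.7 CPM with control-siRNA and at 66.5, 68.4 and 61.2 CPM with TAZ-siRNA. The groups overlapped, with a difference of -0.07 ± 0.05 on the log2 scale (edgeR adjusted p = 0.372). It did not pass the threshold in any of the 15 alternatives.

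The target genes ID1 and ID3 lie on different chromosomes and encode closely related proteins. ID1 (chr20:31605289-31606510) was measured at 15.7, 15.7 and 14.4 CPM with control-siRNA and at 20.2, 23.0 and 20.3 CPM with TAZ-siRNA. The groups were well separated and the spread was small in both, with means of 15.2 ± 0.761 and 21.2 ± 1.57 CPM (SD, n = 3). ID1 rose by 0.47 ± 0.07 on the log2 scale (edgeR adjusted p = 0.00188), and this rise passed the threshold in all 15 alternatives, at 0.41 to 0.51 with each library left out.

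ID3 (chr1:23557926-23559501) was measured at 16.3, 14.5 and 16.6 CPM with control-siRNA and at 15.4, 15.4 and 18.1 CPM with TAZ-siRNA. The groups overlapped, with a difference of 0.05 ± 0.09 on the log2 scale (edgeR adjusted p = 0.729). Its sign depended on single libraries, since leaving out control-siRNA replicate 2 gave -0.01 and leaving out TAZ-siRNA replicate 3 gave -0.03.

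**Figure D2:**
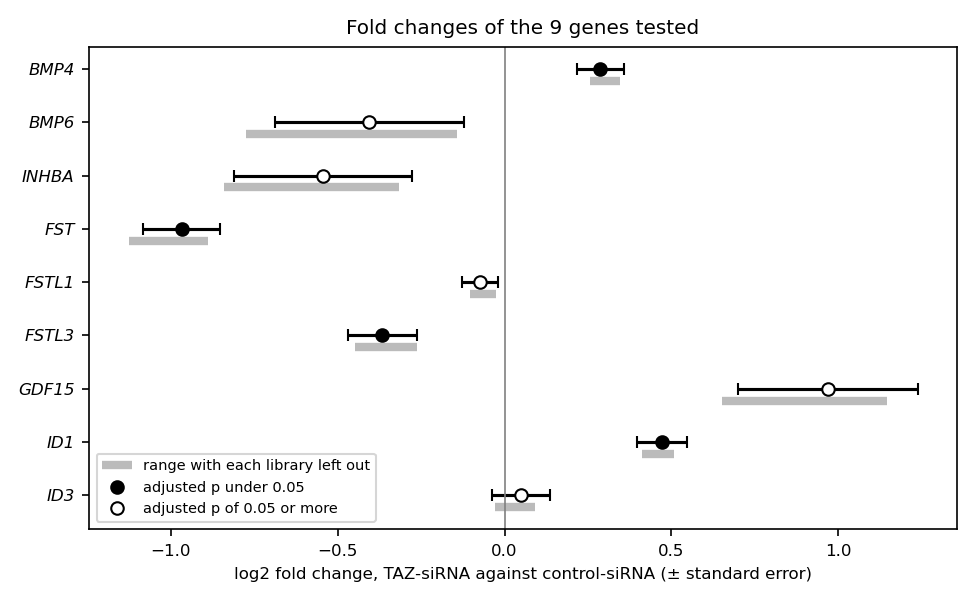
Log2 fold change of TAZ-siRNA against control-siRNA for the 9 genes tested (points, with standard errors; filled where the adjusted p was under 0.05) and the range obtained with each of the 6 libraries left out in turn (grey bars). The points of FST, FSTL3, BMP4 and ID1 are filled. GDF15 is as far from 0 as FST but with a standard error of 0.27. Only the range of ID3 crosses 0.

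Levels of different genes were compared per length, as TPM. With control-siRNA, GDF15 RNA was by far the most abundant at 463 ± 42.6 TPM (SD, n = 3), followed by ID3 at 36.0 ± 2.20, ID1 at 32.3 ± 2.38, FSTL1 at 26.3 ± 1.12 and BMP4 at 21.6 ± 0.903 TPM. FST at 14.6 ± 0.664, FSTL3 at 11.2 ± 0.761 and INHBA at 8.97 ± 0.399 TPM came next, before BMP6 at 1.59 ± 0.235 and BMP2 at 0.0730 ± 0.0549 TPM. In this order, the libraries of ID3 and ID1 overlapped, and those of all other neighbours did not.

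With TAZ-siRNA, GDF15 was at 936 ± 286 TPM and ID1 at 46.9 ± 5.16 TPM, above ID3 at 38.6 ± 1.88 TPM in each library. BMP4 at 27.1 ± 1.34 and FSTL1 at 26.0 ± 2.56 TPM overlapped. FSTL3 at 9.04 ± 0.868, FST at 7.87 ± 0.986 and INHBA at 6.31 ± 2.29 TPM also overlapped with each other. BMP6 was at 1.22 ± 0.502 TPM and BMP2 at 0.0298 ± 0.0517 TPM. Hence ID1 and ID3 were exchanged in the order by mean TPM, and so were FSTL1 and BMP4, and FST and FSTL3. The order partly depended on the transcript length used. With CPM per kilobase of the longest transcript, the mean of FSTL1 (11.51) stayed above that of BMP4 (10.97) with TAZ-siRNA. In replicate 3, however, FSTL1 was below BMP4 (10.78 against 11.23). ID1 was above ID3 in 2 of the 3 TAZ-siRNA libraries but below it in replicate 3 (16.6 against 19.1), while FSTL3 was above FST in all 3.

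The balance between activin subunit and antagonist RNA was described by ratios of TPM within a library. The ratio of INHBA to FST was nearly constant with control-siRNA, at 0.618, 0.615 and 0.612. With TAZ-siRNA it was 0.860, 0.552 and 0.951. It was thus above control-siRNA in 2 libraries and below it in 1. The ratio of INHBA to FSTL3 was 0.803 ± 0.0919 with control-siRNA and 0.702 ± 0.252 with TAZ-siRNA (SD, n = 3), and the groups overlapped.

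The ratio of FST to FSTL3, which was chosen after the values had been seen, was 1.18, 1.47 and 1.27 with control-siRNA and 0.922, 0.755 and 0.943 with TAZ-siRNA. The groups did not overlap, so that FST RNA exceeded FSTL3 RNA in every control-siRNA library and was below it in every TAZ-siRNA library. The ratio of ID1 to ID3 was 0.890, 1.01 and 0.801 with control-siRNA and 1.22, 1.40 and 1.03 with TAZ-siRNA. These groups did not overlap either, although control-siRNA replicate 2 and TAZ-siRNA replicate 3 were close. No ratio of BMP4 to BMP2 is given, as BMP2 was at 0 in 2 libraries.

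**Figure D3:**
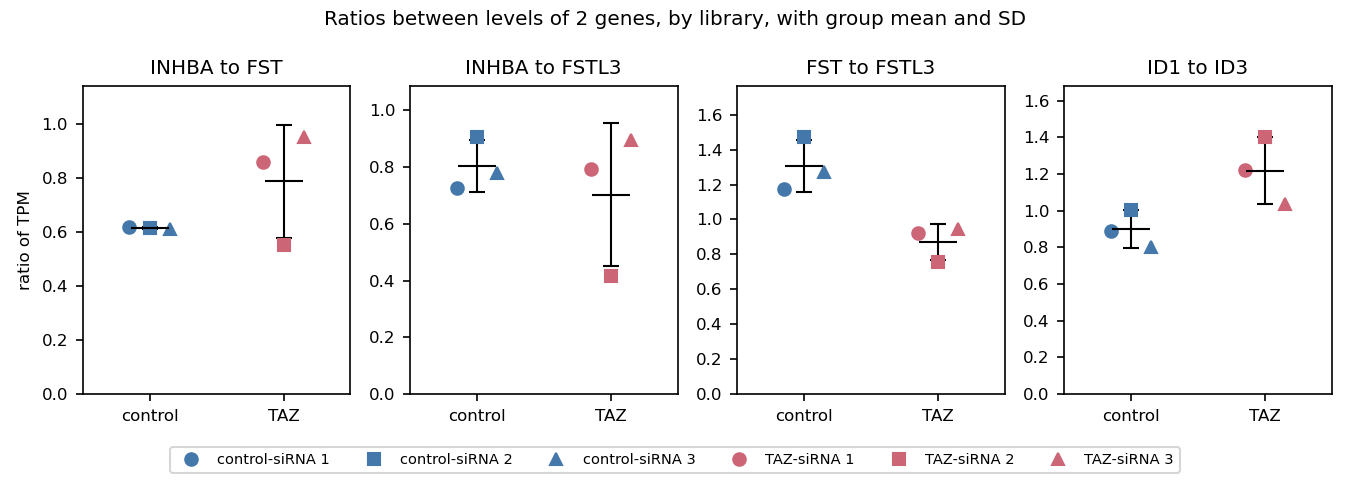
Ratio of the TPM of a pair of genes (vertical axes, from 0) in each control-siRNA library (blue) and TAZ-siRNA library (red), with group means and SDs. The control-siRNA ratios of INHBA to FST lie between 0.612 and 0.618 while the TAZ-siRNA ratios lie on both sides of them, and the groups are separate for FST to FSTL3 and for ID1 to ID3.

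The deposited transcript table divides 6 of the 10 genes among several RefSeq transcripts by estimate, so that shares of a gene's TPM are described without a test. The best measured case is GDF15, in which NM_004864 held 95.6 to 97.2% in every library. The other transcript, XM_024451789, was at 16.60, 18.01 and 17.36 TPM with control-siRNA and at 36.7, 23.0 and 35.6 TPM with TAZ-siRNA, so that both GDF15 transcripts were higher in every TAZ-siRNA library. In ID1, NM_002165 held 79.8 to 89.0%, with the remainder in NM_181353. In FSTL1, NM_007085 held 97.7 to 99.7%.

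FST had 10 transcripts. The transcript XM_005248401 held 45.9, 59.4 and 39.0% of FST with control-siRNA and 26.3, 42.0 and 28.9% with TAZ-siRNA, which overlap. The transcript NM_013409 held 15.9, 23.2 and 23.4% with control-siRNA and 51.4, 42.7 and 26.7% with TAZ-siRNA, so its share was higher in every TAZ-siRNA library. In TPM, NM_013409 was at 2.22, 3.55 and 3.38 with control-siRNA and at 3.81, 3.07 and 2.40 with TAZ-siRNA. Its level therefore overlapped between the groups, whereas XM_005248401 was at 6.43, 9.10 and 5.63 TPM with control-siRNA and at 1.95, 3.02 and 2.60 TPM with TAZ-siRNA, with no overlap.

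BMP4 had 9 transcripts, of which NM_001202 led with 58.1 ± 12.1% with control-siRNA and 68.7 ± 11.6% with TAZ-siRNA (SD, n = 3). The transcript NM_130850, which starts further upstream, held 33.6, 21.0 and 27.1% with control-siRNA and 14.7, 20.8 and 6.38% with TAZ-siRNA. These shares were separate between the groups by a narrow margin. In TPM, NM_130850 was at 7.15, 4.38 and 6.11 with control-siRNA and at 3.89, 5.95 and 1.67 with TAZ-siRNA, which overlap. In INHBA, NM_002192 held 93.1 to 94.5% with control-siRNA and 98.2, 68.4 and 99.4% with TAZ-siRNA. The second TAZ-siRNA library, in which INHBA was lowest, thus had a different estimated make-up from the other libraries, with 27.3% in XM_017012175.

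**Figure D4:**
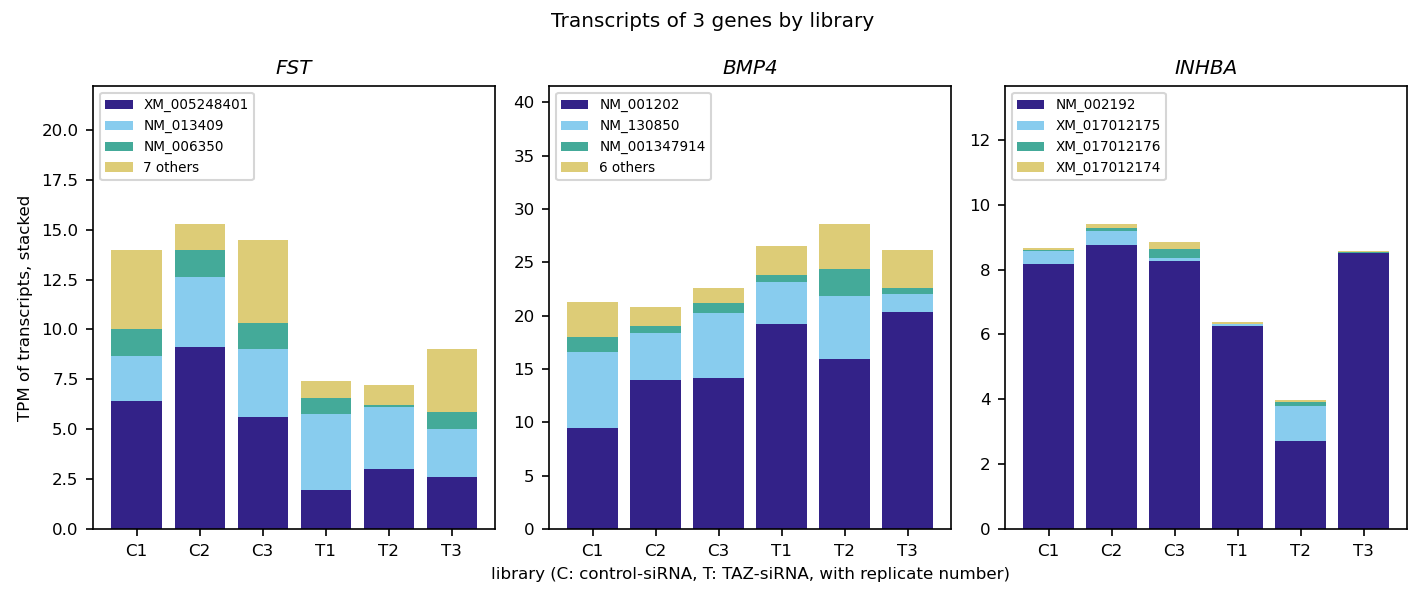
Stacked TPM of the transcripts of FST, BMP4 and INHBA in each library (C, control-siRNA; T, TAZ-siRNA; the number is the replicate), with the 3 leading transcripts named and the remaining ones joined or named. The lower FST bars with TAZ-siRNA lack mostly XM_005248401 while NM_013409 is kept, and T2 is the lowest INHBA bar and has the largest XM_017012175 part.

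The other genes of the pathway were taken from lists of 85 genes in all, of which 55 were tested. Of these 55, 8 were higher and 3 were lower at an adjusted p under 0.05, and their median log2 fold change was 0.11. Over all genes tested, 11.9% were higher, 10.2% were lower and the median was -0.01.

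Among 25 other ligands, 12 were tested. INHBB, which encodes the βB subunit of activin B, rose by 0.53 ± 0.11 on the log2 scale (edgeR adjusted p = 0.00670), from 6.42, 5.21 and 5.68 CPM to 8.56, 8.84 and 7.56 CPM. Thus the βB gene passed the test upwards while the βA gene INHBA had a negative estimate that did not. BMP8B rose (log2 fold change 0.47, adjusted p = 0.0221), and LEFTY1, an inhibitor of nodal signals, fell by 0.48 on the log2 scale (adjusted p = 0.0101). BMP8B and LEFTY1 each have a near-identical neighbour, BMP8A and LEFTY2, between which reads may be divided uncertainly.

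Of 14 receptor and co-receptor genes, 11 were tested, 3 rose and none fell. BMPR2, the type II receptor for BMPs, was at 93.3, 91.9 and 89.4 CPM with control-siRNA and at 128, 129 and 107 CPM with TAZ-siRNA, without overlap (log2 fold change 0.41 ± 0.07, adjusted p = 0.00257, edgeR). ENG, a co-receptor for BMP and TGF-β ligands, rose by 0.31 on the log2 scale (adjusted p = 0.00527), and ACVR1, a type I receptor, by 0.28 (adjusted p = 0.0139). The type I receptor gene BMPR1A did not pass (0.13, adjusted p = 0.255), and neither did the activin type II receptor gene ACVR2A (0.22, adjusted p = 0.0601). The median over the 11 genes was 0.14.

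Of 19 other antagonists, 10 were tested, and CRIM1, a membrane protein that binds BMPs, was the only one to pass. It fell by 0.76 on the log2 scale (adjusted p = 1.34e-04, edgeR), from 438, 418 and 399 CPM to 259, 260 and 222 CPM, with no overlap. BAMBI, a decoy receptor (0.27, adjusted p = 0.101), and NOG, which encodes noggin (0.07, adjusted p = 0.765), did not pass. The median of the list was 0.08. None of the 10 tested passed the threshold upwards.

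All 10 SMAD and SMURF genes were tested. SMURF1, an E3 ligase that targets BMP SMADs, rose by 0.31 on the log2 scale (adjusted p = 0.00188, edgeR), and its relative SMURF2 fell by 0.17 (adjusted p = 0.0241). None of the 8 SMAD genes passed. Those of the BMP branch had log2 fold changes of 0.20 for SMAD1 (adjusted p = 0.0884), -0.05 for SMAD5 (0.664) and 0.27 for SMAD9 (0.0519), and the inhibitory SMAD6, itself a BMP target, had 0.55 (0.0595).

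Of 8 other readout genes of the BMP branch, 4 were tested. ID4 rose by 0.58 ± 0.12 on the log2 scale (edgeR adjusted p = 0.00603), from 6.06, 5.70 and 7.33 CPM to 10.2, 8.46 and 9.63 CPM. ID2 was at 8.68, 9.38 and 11.2 CPM with control-siRNA and at 9.35, 5.72 and 15.6 CPM with TAZ-siRNA, a wide spread around a difference of 0.07 on the log2 scale (adjusted p = 0.913). Within the ID family, ID1 and ID4 thus rose, and ID2 and ID3 did not pass the test. Of the E-protein genes, TCF3 (0.09, adjusted p = 0.329) and TCF12 (0.01, adjusted p = 0.910) did not pass, and TCF4 was too low to be tested.

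Among 6 genes of the stress response that often accompanies GDF15, CHAC1 rose (log2 fold change 0.36, adjusted p = 9.10e-04, edgeR). DDIT3 (0.15, adjusted p = 0.0516), ATF3 (0.11, adjusted p = 0.434), ATF4 (-0.01, adjusted p = 0.926), TRIB3 (-0.18, adjusted p = 0.475) and CDKN1A (0.33, adjusted p = 0.259) did not pass. In the third TAZ-siRNA library, where GDF15 was highest, the CPM of ATF3, ATF4, DDIT3, TRIB3 and CDKN1A were also the highest of the 6 libraries, and that of CHAC1 was not. In TPM, DDIT3 was highest in TAZ-siRNA replicate 1, at 418 against 410.1 in replicate 3.

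**Figure D5:**
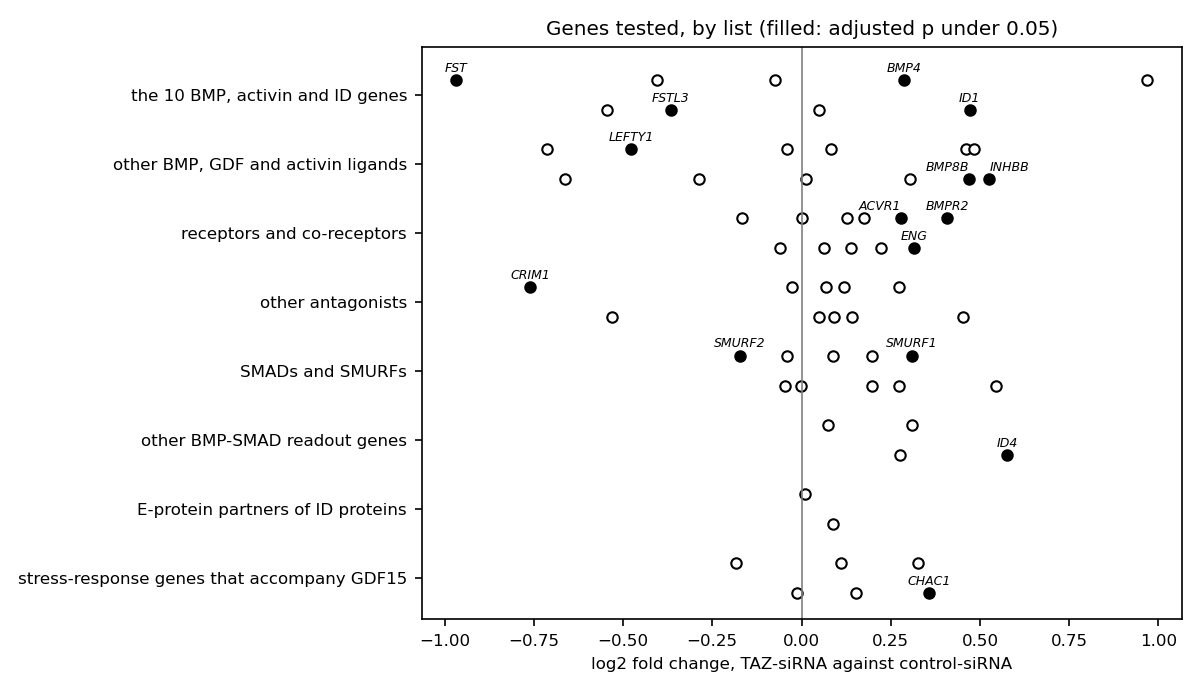
Log2 fold change of TAZ-siRNA against control-siRNA (horizontal axis) for each gene tested of the 10 BMP, activin and ID genes and of 7 further lists; filled and named points had an adjusted p under 0.05. The 3 receptor genes that passed lie to the right of 0, and FST and CRIM1 are the passing genes farthest to the left.

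The genes most like FST, FSTL3 and ID1 were sought among 13591 genes, as the smallest root mean square difference of centred log2 CPM over the 6 libraries. For FST these were G0S2 (0.0816), LIMCH1 (0.0871) and F3 (0.0917). For ID1 they were ASRGL1 (0.0210), OTUD1 (0.0211) and BBS9 (0.0238). The offset of 0.5 CPM added before the log narrows differences in genes of low level. ASRGL1 was such a gene, at 1.15 to 2.05 CPM, with a log2 fold change of 0.56 against 0.47 for ID1. For FSTL3 they were BOLA2 (0.0343), a gene in several near-identical copies, GGT7 (0.0407) and MRPL58 (0.0444). GGT7 was also low, at 0.782 to 1.36 CPM. Its log2 fold change was -0.51 against -0.37 for FSTL3 and did not pass (edgeR adjusted p = 0.0821). The distances for FST were larger than those for FSTL3 and ID1.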

How the data were processed

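RNA from 3 control-siRNA and 3 TAZ-siRNA preparations was sequenced as stranded mRNA libraries. Reads were mapped by the authors to GRCh38 with HISAT2 and quantified on RefSeq transcripts with StringTie. The authors deposited an estimated count for each gene and transcript as a whole number; how it was derived and strand use in counting are not given in the sources used here. The authors scaled the deposited FPKM by transcript length and library, and the deposited TPM also to a common total. Transcript length came from the deposited transcript table. Libraries held 48307548 to 71749634 counts, and the floor of 3 counts was 0.0411 to 0.0618 CPM, which covers counting error only.

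Counts were compared with edgeR 4.0.16 (R 4.3.3), using TMM, filterByExpr with a minimum count of 10, robust quasi-likelihood fits and p-values adjusted by Benjamini-Hochberg across the 16966 tested genes. An offset of 0.5 CPM was added before taking log2 CPM in the likeness search. Alternatives used DESeq2 1.42.0, limma 3.58.1 on log2(FPKM + 1), log2(FPKM + 0.1) and log2(TPM + 1), other normalizations and filters, a replicate block, a threshold of 0.01, and each library left out. The fits were tested on simulated data. Exact permutation tests of 3 against 3 libraries cannot go below 0.1.

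The members and lists were chosen with earlier results of these data known. All members were named. Of each list, up to 3 genes with an adjusted p under 0.05 and the largest changes were named, and genes of the receptor, SMAD and readout lists could be given regardless. The antagonist, E-protein and stress genes that did not pass were named after their values had been seen. For likeness, the 3 nearest genes of at least 1 CPM were taken for the 3 called members that changed most.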

Additional observations from a re-analysis of the deposited data

How the results depend on the processing

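The 4 calls among the 9 genes became 2 to 7 when each library was left out. The lowest count came without control-siRNA replicate 1 and the highest without TAZ-siRNA replicate 3, and the cause was not tested. Calls over all genes moved as well, with 2262 of 17213 and 5928 of 17585 genes in these settings. At an adjusted p under 0.01, 2 genes passed, FST and ID1, and the share over all genes at this threshold is not given here. The 11 calls in the other pathway lists became 8 to 22, with the lowest without control-siRNA replicate 2 (1937 of 17258 over all genes) and the highest again without TAZ-siRNA replicate 3. DESeq2 and the fit with the replicate number as a block each called 5 of the 9 genes. Over all genes, DESeq2 called 4024 of 16966. The block raised the calls over all genes from 3749 to 5122 and put GDF15 at 0.92 on the log2 scale (edgeR adjusted p = 0.0467). Same-numbered libraries had correlations of 0.0388, 0.0344 and 0.206 in their deviations from the group means. Not every library correlated best with its own number. Whether same-numbered libraries were prepared together is not stated in the sources used here, and these correlations cannot decide it. The log2 fold change of ID3 ranged from -0.0290 to 0.0923 with each library left out, being negative when control-siRNA replicate 2 (-0.00912) or TAZ-siRNA replicate 3 was left out. When levels averaged over all 6 libraries were ordered by counts per kilobase of the longest transcript, 6 of the 10 genes kept their rank, and by FPKM all 10 kept it. Within control-siRNA 10 of 10 genes kept their rank per kilobase, and within TAZ-siRNA 8 of 10. The leading transcript was the same by counts for all 6 genes with several. FST, FSTL1, ID1 and ID3 kept their side of the threshold in all 15 alternatives, although ID3 changed sign. The calls of BMP4, BMP6, INHBA, FSTL3 and GDF15 changed in some of them, as given above and beside each gene, and WWTR1 kept its call throughout. Depth limits BMP2, and single transcripts are estimates.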
